A study of Mus musculus with 6 samples.

Results

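The guanylate-binding proteins are a family of interferon-inducible GTPases. The 9 genes Gbp2, Gbp2b, Gbp3, Gbp4, Gbp5, Gbp6, Gbp7, Gbp8 and Gbp9 were taken by symbol from the 32285 genes of the count tables, and their unique molecular identifiers (UMIs, each a tag of 1 captured transcript) were summed over myeloid-gated, T-gated and epithelial-gated cells of 6 single-cell libraries of mouse colon. All 9 were found. The 1 further gene of the tables with a symbol of this family, Gbp10, is no member and lay between 0.209 and 3.48 CPM (UMIs scaled to 1000000 UMIs of the gate) in every gate with at least 50 cells.

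The series asked how IL-34 made by intestinal epithelium bears on macrophages and on graft-versus-host disease of the gut after transplantation. GVHD is the library of sorted donor CD11b+ CD64+ macrophages from colons of mice given bone marrow with added spleen cells, and BM is the same sort from mice given bone marrow alone. The other 4 libraries come from transplant recipients lacking IL-34 (IL34KO) or wild type (WT), with a macrophage sort and a donor T-cell sort of each. The strains, the ages, the number of mice in a library and whether the IL34KO and WT recipients also received spleen cells are not given in the sources used here. With 1 library a group there is no replicate and no test: differences are ratios of summed UMIs with exact 95% intervals that cover counting error only.

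Guanylate-binding proteins are large GTPases of the dynamin superfamily that interferon-gamma induces. They assemble on vacuoles and bacteria inside macrophages, and take part in opening pathogen vacuoles and in inflammasome activation. In mice, Gbp2 and Gbp5 are anchored to membranes by prenylation, Gbp5 is tied to the NLRP3 inflammasome, Gbp7 to the phagocyte NADPH oxidase, and Gbp2b is the gene called Gbp1 in older work.

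The family lies in 2 clusters of the mouse genome. In build mm10, 5 members lie on the plus strand of chromosome 3. Gbp5 spans 142493978 to 142522344, Gbp7 142530342 to 142550149, Gbp3 142560026 to 142573209, Gbp2b 142594847 to 142619179 and Gbp2 142620602 to 142638008. On the minus strand of chromosome 5, Gbp8 (105014150 to 105139540), Gbp9 (105077630 to 105139539) and Gbp4 (105115767 to 105139586) overlap each other, and Gbp6 lies at 105270702 to 105293698. Counts of the 3 overlapping genes are therefore uncertain where their exons coincide. Of the stretches of 50 bases in the transcripts of Gbp6, 70.7% also occur in other genes (65.0% in Gm43302 and 45.9% in Gbp10). This makes the count of Gbp6 uncertain too. The share was 18.1% for Gbp8, 12.7% for Gbp7, and between 1.44% and 8.05% for the other 6 members.

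Promoter windows, 250 bases before to 50 bases after an annotated start (RefSeq, GRCm38.p6, plus strand), were at hand for 5 members: Gbp2, Gbp2b, Gbp3, Gbp5 and Gbp7. None was at hand for the 4 members on chromosome 5. Those of Gbp2, Gbp2b, Gbp5 and Gbp7 are shown. In the myeloid gate, as described further on, Gbp2 had the highest ratio of GVHD over BM. Gbp2b was the member that was lower in the macrophage library labelled IL34KO, and Gbp5 and Gbp7 hold both motifs searched. All 9 members were higher in GVHD than in BM there, so the choice of windows does not link a motif to that difference. Capitals mark matches to the interferon-stimulated response element (GAAA, then 2 free bases, then GAAA) or to the gamma-activated site TTCNNNGAA, each searched on both strands. The windows are chr3:142620413-142620712 (Gbp2), chr3:142594597-142594896 (Gbp2b), chr3:142496684-142496983 (Gbp5) and chr3:142530086-142530385 (Gbp7).
Gbp2: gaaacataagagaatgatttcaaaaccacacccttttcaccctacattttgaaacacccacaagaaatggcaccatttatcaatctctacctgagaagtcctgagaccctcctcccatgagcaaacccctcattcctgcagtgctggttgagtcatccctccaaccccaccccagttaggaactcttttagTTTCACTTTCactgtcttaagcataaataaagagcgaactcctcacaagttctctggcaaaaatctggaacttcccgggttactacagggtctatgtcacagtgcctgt
Gbp2b: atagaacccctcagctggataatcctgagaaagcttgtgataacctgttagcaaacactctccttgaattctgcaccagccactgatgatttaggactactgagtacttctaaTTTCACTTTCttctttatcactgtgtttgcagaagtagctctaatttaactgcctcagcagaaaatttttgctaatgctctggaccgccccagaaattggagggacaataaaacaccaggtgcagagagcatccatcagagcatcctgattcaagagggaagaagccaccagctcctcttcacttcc
Gbp5: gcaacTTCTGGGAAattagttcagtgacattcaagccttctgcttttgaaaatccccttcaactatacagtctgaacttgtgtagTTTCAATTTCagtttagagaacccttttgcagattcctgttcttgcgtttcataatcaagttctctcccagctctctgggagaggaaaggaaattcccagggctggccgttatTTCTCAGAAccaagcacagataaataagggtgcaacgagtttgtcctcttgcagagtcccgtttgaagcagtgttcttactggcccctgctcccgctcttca
Gbp7: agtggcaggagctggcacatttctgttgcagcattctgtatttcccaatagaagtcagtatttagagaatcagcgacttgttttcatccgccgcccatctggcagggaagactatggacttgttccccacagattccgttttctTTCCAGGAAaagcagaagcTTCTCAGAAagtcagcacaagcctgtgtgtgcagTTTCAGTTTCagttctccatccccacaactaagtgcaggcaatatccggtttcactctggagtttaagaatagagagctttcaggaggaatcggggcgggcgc

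Gbp2 and Gbp2b each held 1 match to the response element, beginning 59 and 137 bases before the start. Gbp5 held 1 such match at 165 bases and 2 matches to the activated site at 245 and 52 bases before the start. Gbp7 held the response element at 53 bases and the activated site at 106 and 87 bases before the start. Of 2 windows of Gbp3, the first held 2 overlapping matches to the response element, 45 and 39 bases before the start, and the second held none of either motif. Of 32851 windows of the same length, 3.443% held the response element, 8.298% the activated site and 0.4536% both. A match is a description of the letters, not a binding site.

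The libraries held between 4169 and 18360 barcodes and 43660889 to 114425913 UMIs. A cell with at least 500 genes and at most 10% mitochondrial UMIs was assigned to a gate where at least 3 of 8 markers of that gate, and at most 1 marker of each other gate, had a UMI. Of the BM barcodes, 2502 also occurred in GVHD and 2486 of these had more UMIs in GVHD, so they were dropped from BM. The other pairs of libraries shared 5 to 75 barcodes. The myeloid gate held 2064 cells of GVHD, 1977 of BM, and 2429 and 2687 cells of the macrophage libraries labelled IL34KO and WT. The T-cell libraries went against their label, with 3769 (labelled IL34KO) and 6609 (WT) myeloid-gated cells against 1526 and 2600 T-gated cells. Il34 was not lower in either library labelled IL34KO: in epithelial-gated cells it was at 4.62 CPM (3.25 to 6.36) against 3.84 (2.15 to 6.34) in WT for the macrophage libraries, and at 4.21 (2.75 to 6.17) against 2.91 (1.87 to 4.33) in WT for the T-cell libraries. The deleted part of Il34 is not stated, so a UMI tag could come from sequence that the knockout keeps. This limit holds wherever IL34KO is set against WT.

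The family was highest in myeloid-gated cells of every library but BM. There the sum was 657 CPM (604 to 714) in T-gated cells and 621 CPM (612 to 630) in myeloid-gated cells. These intervals overlap, and 5 cells held 53.5% of the member UMIs of the T-gated cells. Since each UMI is 1 tag whatever the transcript's length, levels in CPM are not divided by length. Over the 6 libraries the 9 members summed to 621 to 2074 CPM in myeloid-gated cells, 386 to 753 CPM in T-gated cells and, over the 4 libraries with at least 50 such cells, 295 to 399 CPM in epithelial-gated cells. In the myeloid gate the sum was 1784 CPM in GVHD, 621 CPM in BM, 2074 and 1951 CPM in the macrophage libraries labelled IL34KO and WT, and 1909 and 1925 CPM in the T-cell libraries labelled IL34KO and WT. BM stood apart from the other 5 libraries, which lay within 1784 to 2074 CPM. Gbp2, which coats pathogen vacuoles in mouse macrophages, made up 35.9% of the family's UMIs in GVHD, 13.5% in BM and up to 39.4% in the others. In BM the leading members were Gbp7 at 20.9% and Gbp2b at 18.2%.

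**Figure D1:**
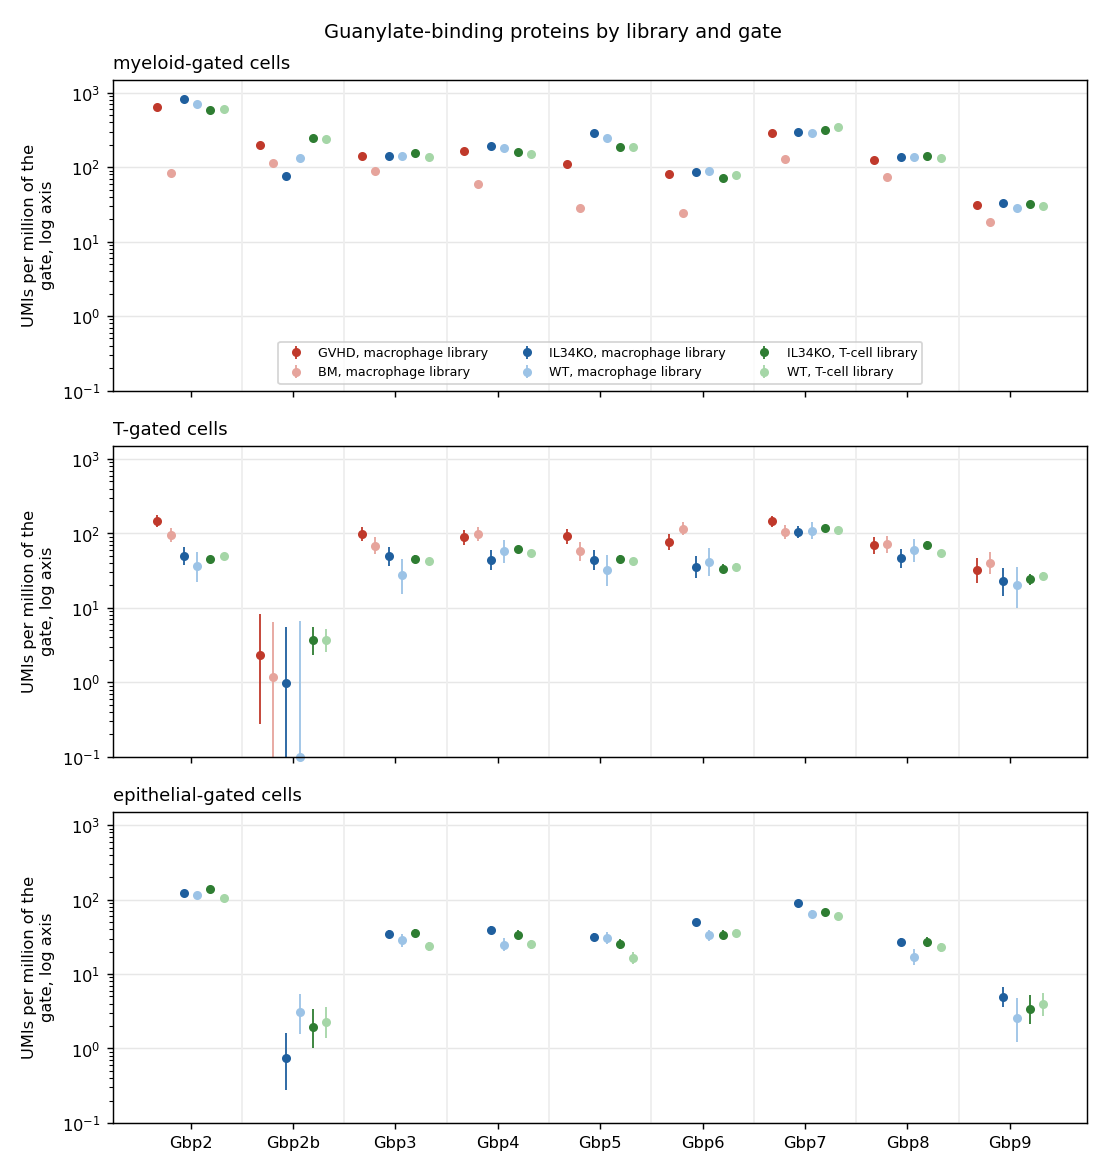
Level of each member in CPM of the gate (log axis) by library, in myeloid-gated, T-gated and epithelial-gated cells. Bars are exact 95% Poisson intervals covering counting error only, and a level of 0 is drawn at the lower edge. In the myeloid gate BM is lowest for every member but Gbp2b, which is lowest in the macrophage library labelled IL34KO, and outside the myeloid gate Gbp2b stays at or below 3.74 CPM.

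The members were divided unequally over the gates. Gbp2b was at 199 CPM in GVHD, 113 in BM, 76.8 and 132 in the macrophage libraries labelled IL34KO and WT, and 251 and 243 in the T-cell libraries labelled IL34KO and WT, all in myeloid-gated cells. In T-gated cells it lay between 0 and 3.74 CPM, and in epithelial-gated cells between 0.749 and 3.07 CPM. Those levels were 0% to 1.54% and 0.775% to 2.33% of the same library's myeloid level. The 8 myeloid gate markers themselves stood in T-gated cells at 0.94% to 1.46% of their myeloid level, and in epithelial-gated cells at 0.922% to 1.19%. Both gates admit cells with at most 1 of these markers, which holds those shares down by design. The complement genes C1qa, C1qb and C1qc, not used for the gates, stood at 1.07% to 2.66% in T-gated and 1.18% to 1.65% in epithelial-gated cells. The Gbp2b UMIs outside the myeloid gate were near these levels, and whether they are background was not tested. The 20 UMIs of Gbp2 in T-gated cells of the WT macrophage library mark the lower end for the other members, at 5.18% of the myeloid level.

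Gbp7, tied to the NADPH oxidase, was the most abundant member in T-gated cells of the 4 libraries labelled IL34KO or WT, at 106 to 119 CPM, and reached 32.4% to 80.6% of the myeloid level over all 6 libraries. In epithelial-gated cells Gbp2 led, with 104 to 138 CPM and 30.5% to 37.4% of the family's UMIs. Gbp9 was as high in T-gated as in myeloid-gated cells or higher in 2 libraries (219% of the myeloid level in BM, 104% in GVHD), and was at 68.5% to 89.1% in the other 4. In BM 4 further members were above their myeloid level in T-gated cells. Gbp6 was at 476% of it, Gbp5 at 202%, Gbp4 at 168% and Gbp2 at 115%. The T-gated interval of Gbp2 (76.8 to 119 CPM) included its myeloid level of 84.1 CPM. In that BM gate 5 of 118 cells held 53.5% of the member UMIs. With cells thinned to equal UMIs, Gbp6 was found in 10.8% of T-gated and 4.20% of myeloid-gated BM cells, and Gbp4 in 12.6% and 10.0%. Gbp5 (2.70% and 4.41%) and Gbp2 (8.11% and 10.0%) were found in a smaller share of T-gated cells. Of these 4, only the intervals of Gbp6 lay apart. Such intervals treat the cells of a library as independent and are no test between gates. In epithelial-gated cells Gbp9 was at 2.56 to 4.99 CPM, which is 9.04% to 15% of the myeloid level. Across all 16 combinations of library and gate with at least 50 cells, the level of Gbp7 followed the family's sum most closely (Pearson r = 0.971 of log2(CPM + 5)), and that of Gbp9 least (r = 0.666). These points share libraries and each member is part of the sum, so the values are descriptions.

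GVHD against BM addressed what changes in colon macrophages when spleen cells are added to the graft. All 9 members were higher in myeloid-gated cells of GVHD than in those of BM, each by at least 1.5-fold. Of the 9868 genes measured there (at least 5 CPM in 1 of both libraries), 15.2% were at least 1.5-fold higher and 18.7% at least 1.5-fold lower. The median log2 ratio of the members was 1.17, against -0.01 over all measured genes. The sum was 2.87-fold higher (2.83 to 2.92), a log2 ratio of 1.52.

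Gbp2 had 641 CPM in GVHD and 84.1 CPM in BM, a ratio of 7.63 (7.31 to 7.95), and 99.1% of measured genes had a lower ratio. Gbp5, tied to NLRP3, had 111 CPM in GVHD and 28.7 CPM in BM, a ratio of 3.88 (3.60 to 4.18). Gbp6 had 82.1 CPM in GVHD and 24.4 CPM in BM, a ratio of 3.37 (3.10 to 3.66). These 3 members had the highest ratios of the family. Gbp4 had 163 CPM in GVHD and 59.5 CPM in BM, 2.74-fold higher (2.60 to 2.89). Gbp7 had 291 CPM in GVHD and 130 CPM in BM, 2.25-fold higher (2.17 to 2.33). The remaining 4 members lay lower and close together: 1.76-fold higher for Gbp2b (1.69 to 1.83), 1.68 for Gbp8 (1.60 to 1.77), 1.67 for Gbp9 (1.51 to 1.85) and 1.58 for Gbp3 (1.51 to 1.66). Gbp8 had 124 CPM in GVHD against 73.4 in BM, Gbp9 30.9 against 18.5, and Gbp3 142 against 89.7. The difference did not rest on Gbp2: without it the other 8 members summed to 1143 CPM in GVHD and 537 CPM in BM, 2.13-fold higher (2.09 to 2.17).

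Other values moved with the same contrast. In the myeloid gate, 8 neutrophil markers summed to 292 CPM in GVHD and 110 CPM in BM, and 4 fibroblast markers to 13.2 CPM in GVHD and 79.9 CPM in BM. Both lists had a UMI for every marker in both libraries, and over all 6 libraries they ranged from 110 to 4516 and from 3.87 to 79.9 CPM. The 4 endothelial markers summed to 27.2 CPM in GVHD and 65.3 CPM in BM, and the B-cell markers to 2.6 CPM in GVHD and 12.3 CPM in BM. The 3 C1q genes summed to 4713 CPM in GVHD and 7186 CPM in BM, and Cd4 was at 0.334 CPM in GVHD and 129 CPM in BM. H2-Q6, a class Ib histocompatibility gene, was at 1.02 CPM in GVHD and 93.2 CPM in BM, and its neighbour H2-Q7 at 12.5 CPM in GVHD and 185 CPM in BM. In T-gated cells H2-Q7 was at 81.6 CPM in GVHD and 1150 CPM in BM. A difference between the donors or hosts of both libraries and the effect of the added spleen cells cannot be told apart. The part of these markers in the family's difference was not tested.

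**Figure D2:**
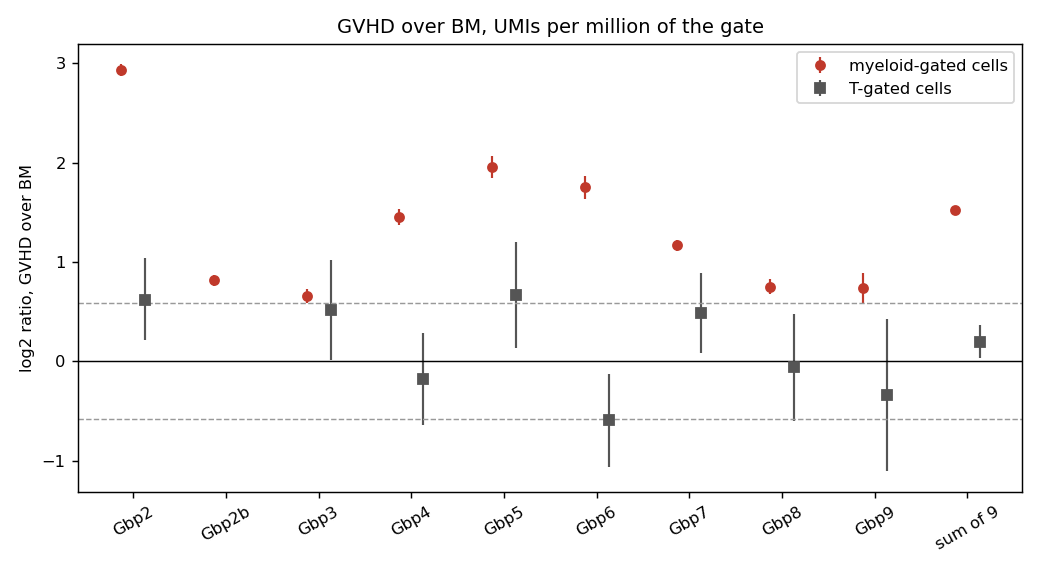
Log2 ratio of GVHD over BM for each member and for their sum, in myeloid-gated cells (circles) and T-gated cells (squares), with exact 95% intervals for counting error. Dashed lines mark 1.5-fold in either direction. All 9 members lie above the upper line in the myeloid gate, from 0.66 for Gbp3 to 2.93 for Gbp2, and T-gated values lie between -0.59 and 0.66 with Gbp2b too low to compare.

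The family was also found in more cells of GVHD. With each cell thinned to 2000 UMIs, which left out 43 GVHD and 72 BM cells with fewer, 57.8% of myeloid-gated cells in GVHD (95% Clopper-Pearson interval 55.7% to 60.0%) and 10.0% in BM (8.71% to 11.5%) had a Gbp2 UMI. Without thinning the shares were 90.5% in GVHD and 32.9% in BM. Gbp7 was found in 40.5% of thinned GVHD cells and 17.7% of BM cells, and Gbp2b in 29.0% of GVHD cells and 15.3% of BM cells. Among T-gated cells thinned in the same way, Gbp2b was found in 0% to 0.596% of cells. Without thinning, 1.24% of T-gated cells in GVHD had a Gbp2b UMI.

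No member at all was found in 9.05% of thinned myeloid-gated cells of GVHD (7.84% to 10.4%) and in 42.8% of those of BM (40.5% to 45%). At least 4 members were found in 20.8% of GVHD cells and 2.47% of BM cells. The mean number of members a cell was 2.35 in GVHD and 0.919 in BM. The other 4 libraries lay at 8.31% to 9.13% of cells with no member and 22.9% to 24.3% with at least 4. The GVHD distribution thus lay beside those of the other 4 libraries and BM apart from all 5.

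**Figure D3:**
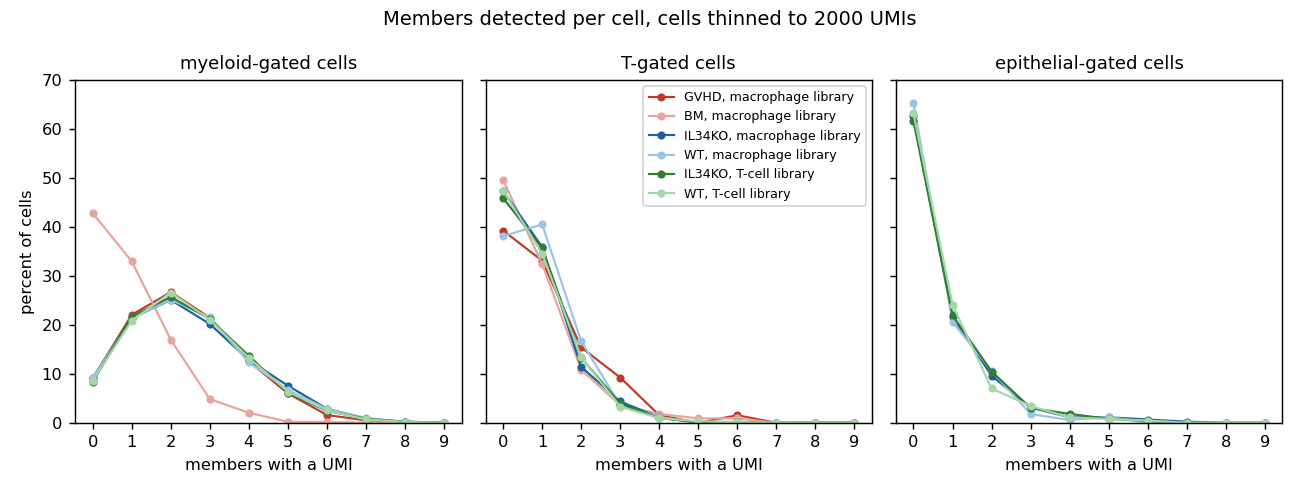
Percent of cells by the number of members with a UMI, with each cell thinned to 2000 UMIs, in the 3 gates and by library. In the myeloid gate BM peaks at 0 members (42.8% of cells) while the other 5 libraries peak at 2 members, and epithelial-gated cells peak at 0 in all 4 libraries shown.

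Within the myeloid gate the difference was seen in each sub-gate that both libraries filled with at least 50 cells. Cells with at least 2 complement C1q genes and no Ly6c2, the monocyte marker, are called C1q-gated. In them the sum was 1669 CPM in GVHD and 591 CPM in BM, 2.82-fold higher (2.77 to 2.88), and Gbp2 was at 544 CPM in GVHD and 63.8 CPM in BM, 8.53-fold higher (8.08 to 9.0). In cells with both C1q and Ly6c2, 32.9% of the GVHD gate and 6.73% of the BM gate, the sum was 1876 CPM in GVHD and 804 CPM in BM, 2.33-fold higher (2.24 to 2.43). There Gbp2 was at 733 CPM in GVHD and 222 CPM in BM, 3.31-fold higher (3.06 to 3.59). In cells with a UMI of neither Nos2 nor Arg1, which make up 48.3% of the gate in GVHD and 98.2% in BM, the sum was 2.81-fold higher (2.76 to 2.87).

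Nos2, the inducible nitric oxide synthase, and Arg1, arginase, compete for arginine in macrophages and are used as opposite polarization markers. In 5 libraries (BM held too few such cells) myeloid-gated cells with a UMI of Nos2 and none of Arg1 were set against those with Arg1 and no Nos2. The sum was higher in the Nos2 cells in 5 of 5 libraries, by 1.29-fold to 1.37-fold. It was 2207 CPM in Nos2 cells and 1609 CPM in Arg1 cells of GVHD. Of the macrophage libraries, the one labelled IL34KO had 2149 CPM in Nos2 cells and 1655 CPM in Arg1 cells, and WT had 2171 CPM in Nos2 cells and 1680 CPM in Arg1 cells. Of the T-cell libraries, the one labelled IL34KO had 2193 CPM in Nos2 cells and 1637 CPM in Arg1 cells, and WT had 2122 CPM in Nos2 cells and 1645 CPM in Arg1 cells. Cells with neither gene, the largest set, had 1722 CPM in GVHD. They had 2187 and 1930 CPM in the macrophage libraries labelled IL34KO and WT, and 1962 and 2001 CPM in the T-cell libraries labelled IL34KO and WT. They lay above the Arg1 cells in each library, and above the Nos2 cells only in the macrophage library labelled IL34KO. This set was the shallowest in each library, with a median of 13291 UMIs in GVHD against 17947 in Nos2 cells and 17845 in Arg1 cells. A missing UMI of Nos2 or Arg1 thus does not show that the gene was off. Cells with both genes lay at 1656 to 1893 CPM over the 5 libraries.

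The members differed in this split. Gbp2 was 1.40-fold to 1.89-fold and Gbp5 1.42-fold to 1.91-fold higher in Nos2 cells. Gbp3, Gbp4 and Gbp6 had ratios of 1.25 to 1.35, 1.2 to 1.69 and 1.32 to 1.49. The intervals of these 5 members lay above 1 in 5 of 5 libraries. Gbp7 had ratios between 0.936 and 1.04, and its interval included 1 in every library. Gbp2b ran from 0.603 to 1.09, with the interval below 1 in 3 libraries and above 1 in 1. Gbp8 ran from 0.891 to 1.2 and Gbp9 from 0.776 to 1.0. Cells that share a library are not replicates, and the same 5 libraries underlie each of these ranges.

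Genes that act with the family were described from 5 lists. In GVHD against BM, myeloid-gated, all 5 measured immunity-related GTPases, which cooperate with guanylate-binding proteins at vacuoles, were at least 1.5-fold higher. Their median log2 ratio was 1.26. Iigp1 had 218 CPM in GVHD and 43.7 CPM in BM (4.99-fold higher, 4.70 to 5.30), and Irgm1, a regulator of the other GTPases, had 69.4 CPM in GVHD and 28.8 CPM in BM (2.41-fold higher). Tgtp2 had 7.08 CPM in GVHD and 2.96 in BM, and Igtp 37.3 CPM in GVHD and 15.8 in BM. Over all 9868 measured genes of this contrast, 15.2% were at least 1.5-fold higher and 18.7% lower. Of 12 measured genes of interferon-gamma signalling, 4 were higher and 0 lower, with a median log2 ratio of 0.24. Among them were Socs1, a feedback inhibitor of cytokine signalling (38.5 CPM in GVHD, 17.0 in BM), Irf1 (234 CPM in GVHD, 132 in BM) and the kinase Jak2 (217 CPM in GVHD, 145 in BM).

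Downstream and accessory genes did not move together. Of 9 inflammasome genes, the adaptor Pycard (245 CPM in GVHD, 91.1 in BM) and the pore-forming Gsdmd (49.3 CPM in GVHD, 31.5 in BM) were higher. Il18 (9.94 CPM in GVHD, 26.5 in BM) and Casp4, the mouse caspase-11 gene (198 CPM in GVHD, 339 in BM), were lower, and the median log2 ratio was -0.09. Of 13 genes of the ubiquitin-like conjugation system that targets the family to vacuoles, Atg5 was higher (62.7 CPM in GVHD, 41.0 in BM). The cargo receptor Sqstm1 (509 CPM in GVHD, 835 in BM) and Usp18 (7.84 CPM in GVHD, 13.2 in BM) were lower. None of the 5 measured prenylation enzymes passed 1.5-fold. Since 15.2% of all measured genes were higher and 18.7% lower, the counts of these small lists are not read as a result. Gene lists and members were chosen with earlier results of these data known.

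In T-gated cells the sum was 753 CPM in GVHD and 657 CPM in BM, a ratio of 1.15 (1.02 to 1.28) and a log2 ratio of 0.20. That log2 ratio was 0.82 with a stricter gate, which asks for 4 own markers, allows none of another gate and kept 79 GVHD and 54 BM cells. Of the 8 members measured, Gbp2 and Gbp5 were at least 1.5-fold higher, Gbp6 at least 1.5-fold lower and 5 within 1.5-fold, where 22.0% of 11162 measured genes were higher and 18.5% lower. Gbp2 had 148 CPM in GVHD and 96.4 CPM in BM (1.54-fold higher, 1.16 to 2.05). Gbp5 had 92.0 CPM in GVHD and 58.1 CPM in BM (1.58-fold higher, 1.10 to 2.30). Gbp6 had 77.0 CPM in GVHD and 116 CPM in BM (1.51-fold lower, ratio 0.664, 0.480 to 0.913). With the stricter gate the log2 ratio of Gbp6 turned to 0.65 and 6 members passed 1.5-fold. With TMM factors or median-of-ratios size factors 1 member passed. Gbp2b had 2 UMIs in GVHD and 1 in BM and was too low to compare.

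Few cells carried these T-gated values. In GVHD 161 cells held 655 member UMIs, of which 5 cells held 275 (42.0%), and in BM 118 cells held 566, of which 5 cells held 303 (53.5%). Among T-gated cells, 5 of GVHD and 7 of BM had UMIs of at least 2 of the 4 fibroblast markers, which summed to 1428 CPM in GVHD and 1380 CPM in BM, against 0 to 44.2 CPM in the other 4 libraries. Without those cells the log2 ratio of the sum was 0.26 in place of 0.20, and 3 members passed 1.5-fold. This alternative was chosen after the data had been seen.

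The immunity-related GTPases ran the other way in this gate: 0 of 6 were higher and 5 lower. Of all 11162 genes measured in it, 22.0% were higher and 18.5% lower. The median log2 ratio of the list was -1.03, and Iigp1 was at 102 CPM in GVHD and 248 CPM in BM. These list values rest on the same 161 GVHD and 118 BM cells and are given for the main gate only. Ifng, the gene of interferon-gamma itself, was at 795 CPM in GVHD T-gated cells and 405 CPM in those of BM (1.96-fold higher, 1.72 to 2.24). The receptor chain gene Ifngr2 and Irf9 were lower, which makes 2 higher and 2 lower of 12. In the other lists, 1 of 14 targeting genes was higher and 3 lower, 3 of 7 inflammasome genes and 1 of 6 prenylation enzymes were higher and 0 lower. GVHD held only 34 and BM only 10 epithelial-gated cells, and these were not compared.

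IL34KO against WT addressed whether loss of IL-34 in the recipient alters the colon macrophages and donor T cells. In myeloid-gated cells of the macrophage libraries the sum was 2074 CPM in the library labelled IL34KO and 1951 CPM in WT, a ratio of 1.06 (1.05 to 1.08). Of 9 members, 0 were at least 1.5-fold higher and 1, Gbp2b, was at least 1.5-fold lower, where 1.15% of 9235 measured genes were higher and 2.06% lower. Gbp2b had 76.8 CPM in the library labelled IL34KO and 132 CPM in WT, 1.72-fold lower (ratio 0.583, 0.553 to 0.614), and 0.964% of measured genes had a lower ratio. Gbp2 (817 CPM in the library labelled IL34KO, 703 in WT), Gbp5 (291 CPM in the library labelled IL34KO, 246 in WT) and Gbp9 (33.2 CPM in the library labelled IL34KO, 28.3 in WT) were higher within 1.5-fold, at ratios of 1.16 to 1.18. The other 5 lay between 0.973 and 1.06.

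Gbp2b was lower in every sub-gate compared. In C1q-gated cells it was at 125 CPM in the library labelled IL34KO and 178 CPM in WT, a ratio of 0.698 (0.645 to 0.755). In cells with both C1q and Ly6c2 it was at 48.2 CPM in the library labelled IL34KO and 76.2 CPM in WT, a ratio of 0.633 (0.559 to 0.715). In neutrophil-gated cells, which have at least 4 of 8 neutrophil markers, it was at 85.3 CPM in the library labelled IL34KO and 150 CPM in WT, a ratio of 0.567 (0.515 to 0.625). In Ly6c2-gated cells without C1q only 8 UMIs were found in the library labelled IL34KO and 19 in WT, a ratio of 0.441 whose interval (0.167 to 1.06) includes 1. The rest of the gate, with 5 UMIs in the library labelled IL34KO and 17 in WT, had a ratio of 0.302 (0.087 to 0.852). Split by Nos2 and Arg1, the ratio lay between 0.413 and 0.700 in all 4 sets. The gates themselves were filled differently: neutrophil-gated cells were 25.9% of the myeloid gate in the library labelled IL34KO and 16.1% in WT, and the neutrophil markers summed to 4516 CPM in the library labelled IL34KO and 2072 CPM in WT. Neutrophil-gated cells were also deeper than C1q-gated cells, with a median of 11214 UMIs against 9329 in the library labelled IL34KO and 16181 against 11312 in WT, and whether the sub-gate holds mixed barcodes was not tested.

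**Figure D4:**
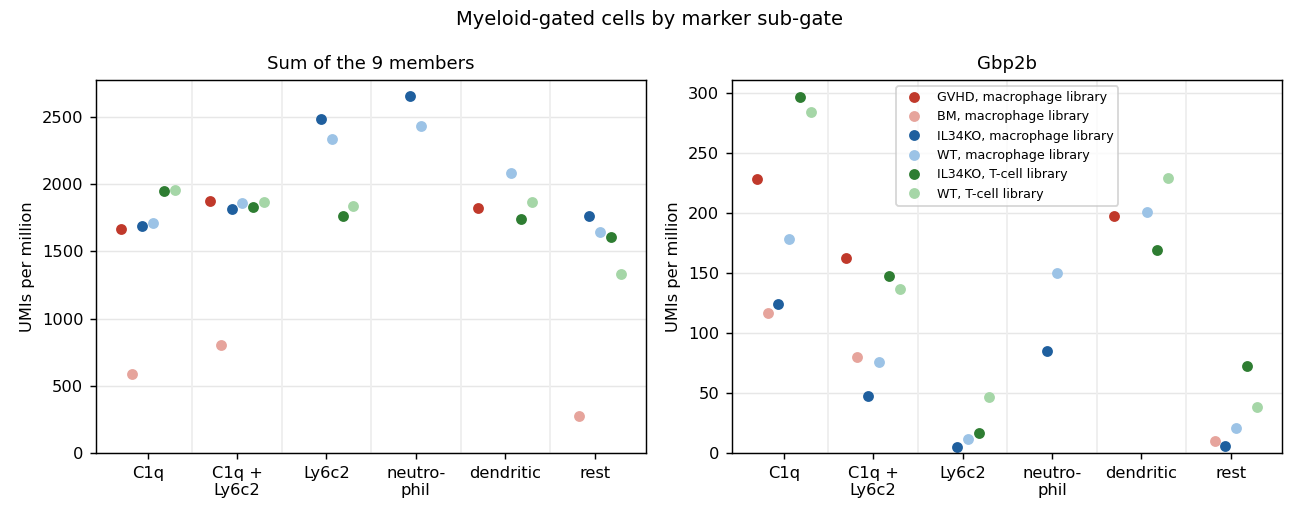
Summed level of the 9 members (left) and level of Gbp2b (right) in CPM, in sub-gates of the myeloid gate with at least 50 cells, by library. BM is low in the sum in each sub-gate it fills, and Gbp2b falls between 117 and 297 CPM in C1q-gated cells and between 5.14 and 46.8 CPM in Ly6c2-gated cells.

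Gbp2b also differed between the sub-gates of a library. C1q-gated cells held 117 to 297 CPM over 6 libraries, cells with C1q and Ly6c2 48.2 to 163 CPM, and Ly6c2-gated cells 5.14 to 46.8 CPM over the 4 libraries with at least 50 of them. In each library with both, Gbp2b was higher with C1q alone than with C1q and Ly6c2. Gbp2 ran in the other direction, at 63.8 to 591 CPM in C1q-gated cells, 222 to 760 CPM with both and 835 to 1114 CPM in Ly6c2-gated cells.

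The T-cell libraries, whose myeloid-gated cells outnumber their T-gated cells, were compared in the same way. There the sum was 1909 CPM in the library labelled IL34KO and 1925 CPM in WT, a ratio of 0.991 (0.981 to 1.0). Gbp2b had 251 CPM in the library labelled IL34KO and 243 CPM in WT, a ratio of 1.03 (1.0 to 1.06), and Gbp2 had 592 CPM in the library labelled IL34KO and 615 CPM in WT, a ratio of 0.963 (0.945 to 0.981). No member of the 9 passed 1.5-fold, where 0.862% of 9165 measured genes were higher and 0.48% lower. In C1q-gated cells Gbp2b was at 297 CPM in the T-cell library labelled IL34KO and 284 CPM in its WT counterpart, against 178 CPM in C1q-gated cells of the WT macrophage library. In 2 small sub-gates Gbp2b was lower in the T-cell library labelled IL34KO than in WT, with a ratio of 0.359 (0.119 to 0.92) in Ly6c2-gated and 0.736 (0.585 to 0.923) in dendritic-gated cells, and in the rest of the gate it was higher, with a ratio of 1.89 (1.16 to 3.12). The WT libraries of both sorts carry the same recipient label and still differed. They also differ in the sort, and which kit each used is not given. Whether sort or kit bears on the difference was not tested.

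**Figure D5:**
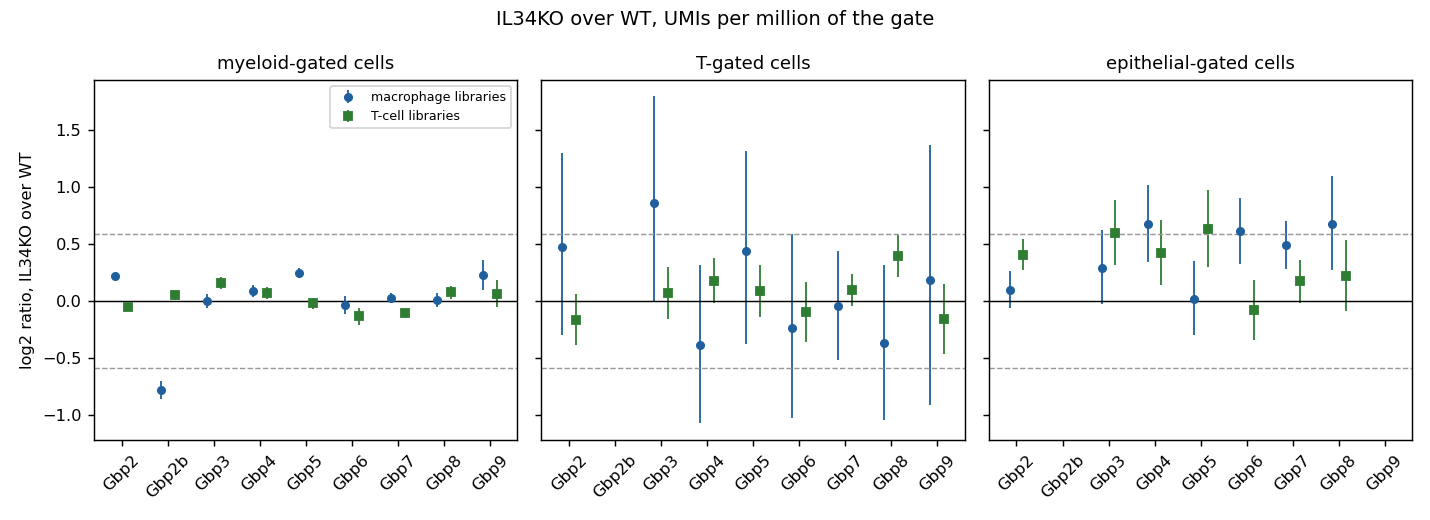
Log2 ratio of the library labelled IL34KO over WT for each member, in myeloid-gated, T-gated and epithelial-gated cells, for macrophage libraries (circles) and T-cell libraries (squares), with exact 95% intervals for counting error. Dashed lines mark 1.5-fold. In the myeloid gate Gbp2b of the macrophage libraries (-0.78) is the member past a line, and in the epithelial gate the measured members lie between -0.08 and 0.67.

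T-gated cells gave few differences between IL34KO and WT. In the T-cell libraries the sum was 448 CPM in the library labelled IL34KO and 422 CPM in WT, a ratio of 1.06 (1.01 to 1.12), and none of 8 measured members passed 1.5-fold, where 2.61% of 9818 genes were higher and 1.75% lower. Gbp8 was furthest, with 71.0 CPM in the library labelled IL34KO and 53.9 CPM in WT, a ratio of 1.32 (1.15 to 1.5). In CD8-gated cells, with Cd8a or Cd8b1 and neither Cd4 nor Foxp3, the sum was 439 CPM in the library labelled IL34KO and 393 CPM in WT (ratio 1.12, 1.05 to 1.2), and in CD4-gated cells 406 CPM in the library labelled IL34KO and 443 CPM in WT (ratio 0.917, 0.823 to 1.02). In the macrophage libraries, with 204 T-gated cells in the one labelled IL34KO and 94 in WT, the sum was 401 CPM in the library labelled IL34KO and 386 CPM in WT. Gbp3 alone of 8 measured members passed 1.5-fold, at 49.4 CPM in the library labelled IL34KO and 27.3 CPM in WT (ratio 1.81, 1.0 to 3.47), where 14.7% of 10131 genes were higher and 14.6% lower.

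Epithelial-gated cells, which the sorts were not meant to hold, had a higher family sum in both libraries labelled IL34KO. In the macrophage libraries it was 399 CPM in the library labelled IL34KO and 317 CPM in WT, a ratio of 1.26 (1.18 to 1.35). Of the measured genes 81.8% had a lower ratio, and their median log2 ratio was 0.07. In the same cells the 8 neutrophil markers summed to 234 CPM in the library labelled IL34KO and 58.4 CPM in WT, and their part in the difference was not tested. In epithelial-gated cells of the T-cell libraries they summed to 32.7 CPM in the library labelled IL34KO and 37.2 CPM in WT. Of 7 measured members 3 were at least 1.5-fold higher and 0 lower, where 6.49% of 10610 genes were higher and 2.37% lower. These were Gbp4 (39.6 CPM in the library labelled IL34KO, 24.9 in WT), Gbp6 (50.4 CPM in the library labelled IL34KO, 33.1 in WT) and Gbp8 (27.0 CPM in the library labelled IL34KO, 16.9 in WT), at ratios of 1.53 to 1.59, and with looser cell filters 1 member passed. With TMM factors the log2 ratio of Gbp6 was 0.57 and with size factors 0.54, both under 1.5-fold, which left 2 members. In the T-cell libraries the sum was 368 CPM in the library labelled IL34KO and 295 CPM in WT, a ratio of 1.24 (1.17 to 1.32). Here 84.4% of measured genes had a lower ratio, and their median log2 ratio was 0.07. There 2 of 7 measured members were at least 1.5-fold higher and 0 lower, where 4.24% of 10460 genes were higher and 1.58% lower. They were Gbp3 (35.6 CPM in the library labelled IL34KO, 23.5 in WT) and Gbp5 (25.6 CPM in the library labelled IL34KO, 16.5 in WT), and with TMM factors, size factors or looser cell filters 0 members passed.

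The sums thus moved by like amounts in both pairs of libraries. The members past 1.5-fold lay close to that cutoff, so which of them passed in which pair is not read as a result. In the T-cell libraries Gbp2 of epithelial-gated cells was at 138 CPM in the library labelled IL34KO and 104 CPM in WT, a ratio of 1.32 (1.2 to 1.46). It was 1.78-fold higher (1.54 to 2.06) in goblet-gated cells, which have at least 2 of the mucus genes Muc2, Fcgbp, Clca1, Zg16 and Spink4, at 204 CPM in the library labelled IL34KO and 114 CPM in WT. In the macrophage libraries Gbp2 of goblet-gated cells had 111 CPM in the library labelled IL34KO and 116 CPM in WT. The gate was filled differently, with 35.9% goblet-gated cells in the library labelled IL34KO and 43.6% in WT for the macrophage libraries, and 26.5% in the library labelled IL34KO and 29.5% in WT for the T-cell libraries. A small number of cells held much of the signal: 5 cells carried 11.4% of member UMIs in the macrophage library labelled IL34KO and 22.2% in its WT counterpart. In the T-cell libraries 5 cells carried 14.7% in the one labelled IL34KO and 12.6% in WT.

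Of the lists, interferon-gamma signalling in epithelial-gated cells of the macrophage libraries had 2 of 12 genes higher and 0 lower. Of all 10610 genes measured there, 6.49% were higher and 2.37% lower. One of the 2 list genes was Nlrc5, an activator of class I genes (47.0 CPM in the library labelled IL34KO, 27.2 in WT). In the T-cell libraries 0 of 12 passed, where 4.24% of 10460 genes were higher and 1.58% lower. The GTPase Irgm1 passed 1.5-fold in all 3 gates of the T-cell libraries. It had 63.7 CPM in the library labelled IL34KO and 32.8 CPM in WT in myeloid-gated cells (1.94-fold higher, 1.81 to 2.08), and 14.6 CPM in the library labelled IL34KO and 8.03 CPM in WT in T-gated cells (1.81-fold higher, 1.31 to 2.51). In epithelial-gated cells it had 79.9 CPM in the library labelled IL34KO and 39.8 CPM in WT (2.01-fold higher, 1.74 to 2.32). In the macrophage libraries its ratio was 1.39 (1.28 to 1.5) in myeloid-gated, 1.2 (0.383 to 4.39) in T-gated and 1.34 (1.12 to 1.60) in epithelial-gated cells. In myeloid-gated cells Irgm1 was the 1 gene of all 5 lists past 1.5-fold in either pair of libraries. In T-gated cells of the T-cell libraries, Ube2l6 of the targeting list was also higher and Il1b of the inflammasome list lower. In T-gated cells of the macrophage libraries 3 genes of the 5 lists, with 4 to 14 measured genes each, were higher and 5 lower. Of all 10131 genes measured there, 14.7% were higher and 14.6% lower, so these counts are not read as a result. In epithelial-gated cells of the macrophage libraries Tgtp1 and Tgtp2 of the immunity-related GTPases were also higher, and 0 genes of the other 3 lists passed in either pair.

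The genes whose level ran most like the family's sum over the 16 combinations of library and gate, by Pearson r of log2(CPM + 5) among 9537 genes, were Clec1a (r = 0.981), Pygl (0.981), Tex14 (0.975), Procr (0.975), Cd1d1 (0.973), Cacna1d (0.973), Samhd1 (0.972) and St7 (0.972). Samhd1, a nucleotide triphosphohydrolase that restricts viruses, ranged from 91.7 to 974 CPM, and Procr, the endothelial protein C receptor, from 0 to 249 CPM. The points share libraries and fall into gates, so these values describe a likeness of levels.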

How the data were processed

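Count tables of 6 single-cell libraries (colon macrophage sorts of GVHD, BM, IL34KO and WT mice, and T-cell sorts of IL34KO and WT mice) hold whole-number UMI counts per gene and barcode as the authors deposited them. They were made with Cell Ranger 7.0.1 against mm10, per the submitters' processing notes. Kits reading the 5′ and the 3′ end are both named, and which library used which, and whether intronic reads were counted, are not given in the sources used here.

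Cells were filtered, gated on fixed markers and summed by library and gate, and BM barcodes also in GVHD were dropped. Gates with at least 50 cells in both libraries were compared, which gave 8 of 9 planned comparisons. A gene was measured at 5 CPM or more in 1 of both libraries and called at 1.5-fold. Intervals are exact: conditional binomial for ratios, Poisson for levels, Clopper-Pearson for shares. Those for shares treat the cells of a library as independent. Depth was 549314 to 46977009 UMIs in a compared gate. No doublet was removed in the main values, and automatic Scrublet calls (scanpy 1.11.5) numbered 1143 in the WT T-cell library and 0 to 3 in the other 5. Alternatives used edgeR 4.0.16 TMM factors and DESeq2 1.42.0 size factors (R 4.3.3), other gates, filters and floors, and removal of the highest doublet scores. Python 3.11.15 with scipy 1.17.1 was used, and the ratios were tested on simulated data.

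Named genes were the 9 members, Gbp10, up to 4 genes of each of 5 lists (interferon-gamma signalling, immunity-related GTPases, targeting, inflammasome, prenylation), those with the largest ratios on the side of that list's median, and the 8 genes most like the sum. Other list genes past 1.5-fold were named after their values were seen. Some genes of the lists are counted but not reported by name here. Members and lists were chosen with earlier results of these data known. Gene positions are from GENCODE M21.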

Additional observations from a re-analysis of the deposited data

Results flagged for a closer look

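For Gbp2 and Gbp2b the ratio of the library labelled IL34KO over WT in myeloid-gated cells pointed in opposite directions in the macrophage and the T-cell libraries. Their counting intervals excluded equal levels in both pairs. The signs of Gbp3, Gbp5 and Gbp7 differed too, but in 1 of both pairs the interval of each included equal levels. The log2 ratio of Gbp2b was -0.779 in the macrophage libraries and 0.0486 in the T-cell libraries. The latter value is small: TMM factors shift every log2 ratio of that pair by -0.0406. The log2 ratio of Gbp2 was 0.217 in the macrophage libraries and -0.0543 in the T-cell libraries. With 1 library a group the difference between both pairs was not tested.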

How the results depend on the processing

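No paired analysis was possible because each group had 1 library, and no replicate could be left out. The log2 ratio of the sum for GVHD over BM in myeloid-gated cells, 1.52 in the main analysis, was 1.70 with TMM, 1.66 with size factors, 1.57 with the stricter gate, 1.55 without doublets, 1.26 with shared barcodes kept and 1.61 with cells weighted equally. TMM moved the median of all genes there by 0.18 and size factors by 0.13, and size factors moved it by -0.11 in T-gated cells. In T-gated cells that sum (0.20) was 0.82 with the stricter gate and 0.37 without doublets, and the number of members past 1.5-fold (3) was 1 with TMM, 1 with size factors and 6 with the stricter gate. For IL34KO over WT in the macrophage libraries, the myeloid sum (0.09) was 0.11 with size factors, 0.11 with the stricter gate, 0.11 with the looser gate and 0.20 with equal weights. The T-gated count there (1) was 2 without the floor, 2 with the looser gate and 2 with equal weights. The epithelial count (3) was 5 without the floor, 1 with looser filters and 1 with the looser gate, and the epithelial sum (0.33) was 0.23 with looser filters and 0.20 with the stricter gate. In the T-cell libraries the myeloid sum (-0.01) was -0.053 with TMM and -0.039 with size factors, the T-gated sum (0.09) was 0.0088 with TMM and 0.17 with the stricter gate, and the T-gated count (0) was 1 with the stricter gate. The epithelial sum there (0.32) was 0.23 with TMM, 0.20 with looser filters and 0.42 with the looser gate, and the count (2) was 0 with TMM, 0 with size factors and 0 with looser filters. Gbp6 of GVHD over BM in T-gated cells reversed to 0.65 with the stricter gate. Of 507 single-member values under alternatives, 436 moved by less than their counting interval, 70 by more, and that 1 reversed. The stricter gate left too few T-gated cells in the macrophage libraries labelled IL34KO and WT for a value. The causes of these moves were not tested.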
